A study of Mus musculus with 8 samples.

Results

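The genes described here are 10 interferon-induced GTPases of the mouse, namely the guanylate-binding proteins Gbp2b, Gbp2, Gbp3, Gbp5, Gbp7, Gbp4 and Gbp6 and the immunity-related GTPases Irgm1, Igtp and Iigp1. They were taken by name from a table of 24535 gene symbols, and all 10 were found and passed the filter used for the test across genes, a mean level of 0.5 FPKM or more. The members were chosen by name with their FPKM in the PATKO and WT libraries known, chiefly the low Gbp2b values in PATKO. Differences of the 10 genes between the groups are therefore given as values without a test. FPKM counts the fragments of a gene scaled to the length of the gene and to the number of fragments in the library, so levels can be compared between genes.

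The libraries were made from poly(A) RNA of brown adipose tissue, which burns fuel to keep mammals warm. There were 4 PATKO libraries (53, 57, 70 and 71), from mice in which PGRMC2 was deleted in adipose tissue, and 4 WT libraries (55, 62, 64 and 65), from wild-type mice. All mice were 18 weeks old, carried the mixed strain name 129Sv/C57BL6j, were fed chow and were kept at 30 °C. The labels name neither the promoter that drove the deletion nor whether each library is 1 animal, so errors measure the spread between these libraries. PGRMC2 is described in the series title as a carrier of heme within cells.

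Interferons bind receptors that act through JAK kinases on transcription factors, and interferon gamma is released mainly by T cells and NK cells. The DNA sites through which interferons induce genes are called GAS and ISRE, and the GTPase genes are among the most strongly induced targets. The proteins gather on the membranes around intracellular pathogens, where guanylate-binding proteins and effector immunity-related GTPases damage the vacuole. Irgm1 and Igtp are regulators that keep the effector GTPases, such as Iigp1, inactive on the cell's own membranes. Gbp2b was formerly called Gbp1, and inbred mouse strains are known to differ in whether interferon induces it.

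The promoter of Gbp2b and that of its neighbour Gbp2 are shown because the levels of these genes differed in pattern, as described after them. Sequences are from RefSeq on GRCm38.p6, the assembly named mm10, and run from 250 bases before to 50 bases after the gene start, written 5′ to 3′ on the strand of the gene. Capitals mark the ISRE core, read as GAAA, any 2 bases and GAAA again and searched on both strands. The GAS motif, TTCNNNGAA, which reads the same on both strands, was in neither window. Gbp2b lies at chr3:142594597-142594896 and Gbp2 at chr3:142620413-142620712, both on the plus strand.
Gbp2b: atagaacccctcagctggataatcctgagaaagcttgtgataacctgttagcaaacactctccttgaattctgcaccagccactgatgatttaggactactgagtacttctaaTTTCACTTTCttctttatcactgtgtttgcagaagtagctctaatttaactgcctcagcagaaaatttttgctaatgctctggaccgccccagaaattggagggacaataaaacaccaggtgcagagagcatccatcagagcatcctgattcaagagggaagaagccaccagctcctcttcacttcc
Gbp2: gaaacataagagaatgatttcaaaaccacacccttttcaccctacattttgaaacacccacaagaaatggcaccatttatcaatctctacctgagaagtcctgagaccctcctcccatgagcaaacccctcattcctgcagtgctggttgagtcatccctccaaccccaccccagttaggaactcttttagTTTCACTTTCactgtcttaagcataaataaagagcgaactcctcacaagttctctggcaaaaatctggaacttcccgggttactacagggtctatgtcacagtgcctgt

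Promoter windows were found for 7 of the 10 genes, in 8 windows since Gbp3 has a second start, and each of the 7 genes had an ISRE core in a window. The motif was present in 3.44% of 32851 promoter windows of the same length. For the other genes, stretches of 30 bases around 1 ISRE core each are printed, with the core in capitals. They were cut around a match, so the likeness of the capitals follows from that choice. They lie at chr3:142559989-142560018 for Gbp3, chr3:142496759-142496788 for Gbp5 and chr3:142530273-142530302 for Gbp7, all on the plus strand. The stretch of Irgm1 is at chr11:48871425-48871454 on the minus strand and that of Igtp at chr11:58199512-58199541 on the plus strand.
Gbp3: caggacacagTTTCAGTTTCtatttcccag
Gbp5: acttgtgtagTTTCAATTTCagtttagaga
Gbp7: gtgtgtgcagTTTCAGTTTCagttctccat
Irgm1: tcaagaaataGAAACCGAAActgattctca
Igtp: tctaggaactGAAACTGAAAgctgttcggg
The ISRE core began 137 bases before the RefSeq start in Gbp2b and 59 bases before it in Gbp2, with the same letters in both genes. These distances hold for the RefSeq starts only. The gene positions given further on are from GENCODE, and for Gbp2, Gbp5 and Irgm1 they place the printed ISRE core inside the gene. In Gbp3 and Irgm1, 2 matches of the motif overlapped. A GAS motif was in the windows of 3 genes, Gbp5, Gbp7 and Igtp, against 8.3% of all windows. A match describes the letters only and is not a measured site.

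**Figure D1:**
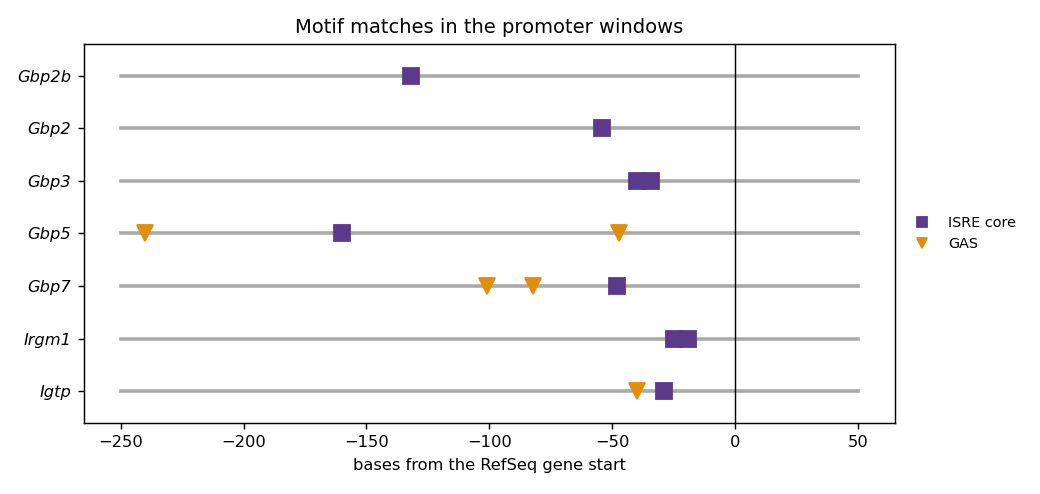
Motif matches in the promoter windows of 7 GTPase genes, with distance in bases from the RefSeq gene start on the x axis and 1 gene a row. Squares are ISRE cores and triangles GAS motifs; each gene has at least 1 square, and the match of Gbp2b begins 137 bases before the start.

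The targeted gene was checked first. Pgrmc2 had 3.23, 2.99, 3.67 and 3.07 FPKM in PATKO 53, 57, 70 and 71, against 35.5, 41.5, 40.4 and 36.8 FPKM in WT 55, 62, 64 and 65. The number of reads is unknown. From genes above 0 in few of the libraries, WT 55 was estimated to be the shallowest, and the 7 others 1.3 to 1.43 times as deep. Each estimate is the most frequent ratio to WT 55 and is rough. It rests on 7 (PATKO 53) to 20 (WT 65) genes, and in PATKO 71 on 8 genes beside 6 at another ratio. Of the brown adipocyte markers, Ucp1, the uncoupling protein of brown fat, was at 409.0 to 645.2 FPKM in PATKO and 521.5 to 1305 FPKM in WT. Dio2, which activates thyroid hormone there, was at 0.591 to 1.80 FPKM in PATKO and 1.18 to 2.18 FPKM in WT. Both are among the 5 of 12 such markers with a log2 difference below 0 as deposited. The median log2 difference of the 12 was 0.09. Values as deposited were shifted upward in PATKO, with a median log2 difference over 12235 tested genes of 0.17, which median-of-ratios scaling brought to -0.00.

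Gbp2b (ENSMUSG00000040264.10, chromosome 3, 142594847 to 142619179, plus strand, GRCm38) was the only member listed at 0 in a library. It had 0, 0.099, 4.35 and 4.13 FPKM in PATKO 53, 57, 70 and 71, against 16.2, 9.39, 10.1 and 20.2 FPKM in WT 55, 62, 64 and 65. The groups did not overlap, and the lowest WT value was 2.16 times the highest PATKO value. Within PATKO the libraries formed 2 pairs, with PATKO 53 and 57 at or near 0 and PATKO 70 and 71 above 4 FPKM. The PATKO mean of 2.15 ± 2.42 FPKM was 15.4% of the WT mean of 13.9 ± 5.14 FPKM (SD, n = 4 each). On the log2(FPKM + 0.5) scale the difference was -3.10, and it lay between -3.63 (without PATKO 70) and -2.53 (without PATKO 53) when single libraries were left out. With 2 PATKO libraries at or near 0 it depended on the value added before the logarithm, and was -4.09 with 0.1 FPKM and -2.61 with 1 FPKM added. The Gbp2b alleles that these mice of mixed strain carry were not analysed here, and their part in the values was not tested.

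Gbp2 (ENSMUSG00000028270.12, 142620602 to 142638008, plus strand), whose prenylated product restricts Toxoplasma in mouse cells, starts 1423 bases after the end of Gbp2b. It had 13.9, 14.9, 14.2 and 14.1 FPKM in PATKO 53, 57, 70 and 71, against 53.8, 16.7, 13.6 and 24.2 FPKM in WT 55, 62, 64 and 65. All 4 PATKO libraries were alike, WT 64 lay below them, and WT 55 stood far above every other library. The PATKO mean was 14.3 ± 0.444 FPKM and the WT mean 27.1 ± 18.3 FPKM (SD, n = 4 each). The log2 difference was -0.70 with all libraries and -0.30 without WT 55.

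The ratio of Gbp2b to Gbp2 within a library sets the neighbours side by side. It was 0, 0.00665, 0.307 and 0.293 in PATKO 53, 57, 70 and 71, against 0.301, 0.564, 0.738 and 0.834 in WT 55, 62, 64 and 65. PATKO 70, PATKO 71 and WT 55 thus had nearly equal ratios, although the FPKM of both genes was several times higher in WT 55, and by this ratio the groups overlapped. The 50-base words of annotated Gbp2b transcripts were shared with other genes for 1.84%, all of them with Gbp2, and those of Gbp2 for 2.03%, all of them with Gbp2b.

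**Figure D2:**
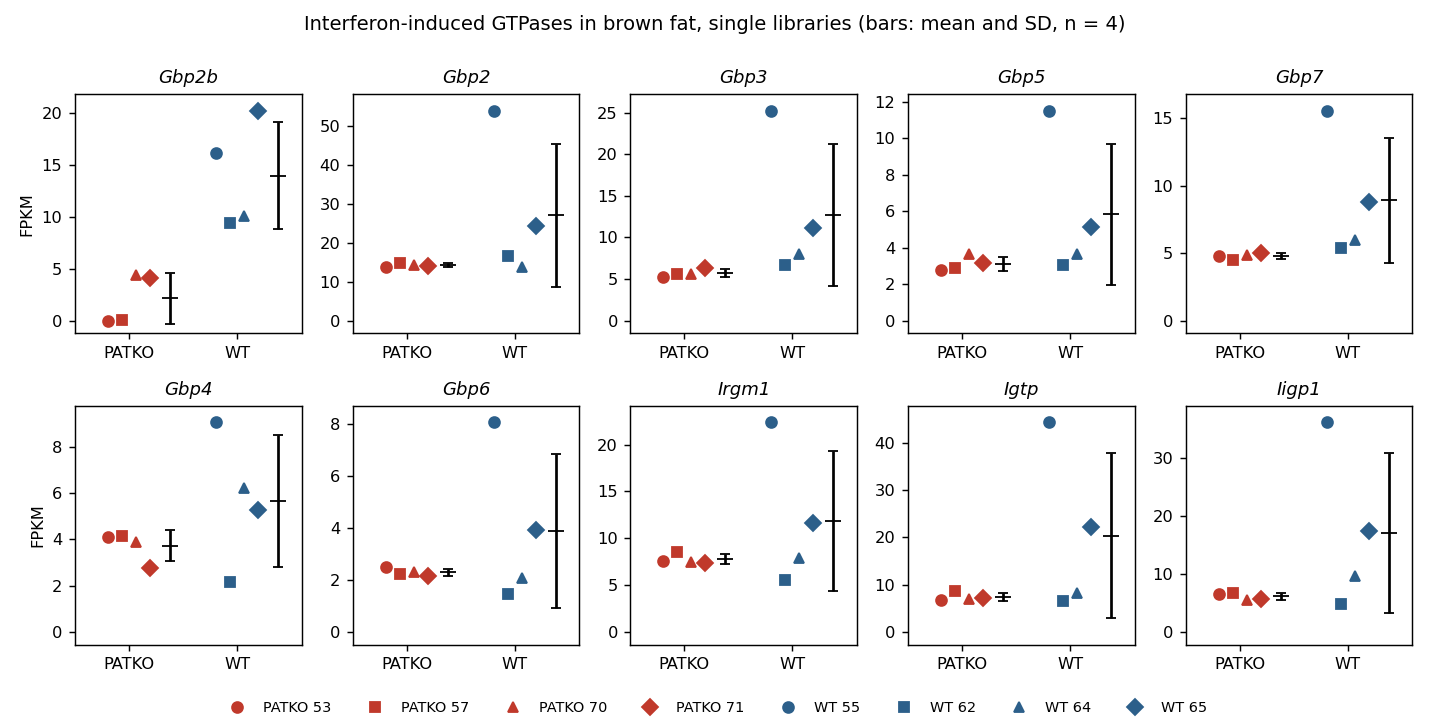
FPKM of the 10 GTPase genes in each of the 4 PATKO (red) and 4 WT (blue) libraries, 1 panel a gene with its own scale; symbols are libraries, and black bars give the mean and SD. Gbp2b, Gbp3 and Gbp7 separate the groups, and Gbp2b splits PATKO into 2 pairs. In the panels other than Gbp2b, WT 55 is the highest point and the PATKO points lie close together, least so for Gbp4.

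A further 3 genes lie on chromosome 3 in the same cluster, which spans 144 kb. Gbp3 (142560026 to 142573209) had 5.23, 5.65, 5.61 and 6.34 FPKM in PATKO 53, 57, 70 and 71, against 25.2, 6.66, 7.98 and 11.1 FPKM in WT 55, 62, 64 and 65. Gbp7 (142530342 to 142550149), which is known in mouse macrophages for oxidative killing of microbes, had 4.81, 4.51, 4.84 and 4.97 FPKM in PATKO, against 15.5, 5.38, 5.97 and 8.75 FPKM in WT, in the same order of libraries. In both genes every PATKO library was below every WT library, by a narrow margin at WT 62. Of the 50-base words of Gbp7, 12.7% also occur in other genes, with 10.5% in Gm43802. Gbp5 (142493978 to 142522344), a promoter of inflammasome assembly, had 2.78, 2.87, 3.66 and 3.19 FPKM in PATKO, against 11.5, 3.05, 3.65 and 5.15 FPKM in WT. Its groups overlapped, with WT 62 and WT 64 inside the PATKO range. The log2 difference without WT 55 was -0.52 for Gbp3, -0.42 for Gbp7 and -0.27 for Gbp5, compared with -0.90, -0.71 and -0.64 with all libraries.

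On chromosome 5 lie Gbp4 (105115767 to 105139586, minus strand) and Gbp6 (105270702 to 105293698, minus strand). Gbp4 had 4.12, 4.17, 3.87 and 2.78 FPKM in PATKO 53, 57, 70 and 71, against 9.06, 2.15, 6.20 and 5.28 FPKM in WT 55, 62, 64 and 65. Gbp6 had 2.48, 2.24, 2.30 and 2.15 FPKM in PATKO, against 8.06, 1.47, 2.09 and 3.91 FPKM in WT, in the same order. For both genes WT 62 was the lowest of the 8 libraries and WT 55 the highest. Their log2 differences were -0.42 and -0.42 with all libraries, and -0.16 and -0.02 without WT 55. Levels of both are uncertain, since the annotated gene of Gbp4 overlaps Gbp8 and Gbp9 on the same strand and 70.7% of the 50-base words of Gbp6 also occur in other genes, among them the overlapping gene Gm43302 and the paralog Gbp10.

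Of the regulators, Irgm1 (chromosome 11, 48861968 to 48871683, minus strand), which is also linked to autophagy, had 7.61, 8.56, 7.51 and 7.36 FPKM in PATKO 53, 57, 70 and 71, against 22.4, 5.50, 7.91 and 11.7 FPKM in WT 55, 62, 64 and 65. Igtp (chromosome 11, 58199556 to 58207591, plus strand), also called Irgm3, had 6.82, 8.70, 7.01 and 7.22 FPKM in PATKO, against 44.3, 6.55, 8.28 and 22.3 FPKM in WT, in the same order. In both genes WT 62 was below all PATKO libraries and WT 64 lay inside their range, while WT 55 and WT 65 were above it. The log2 difference of Irgm1 was -0.40 with all libraries and -0.04 without WT 55, and that of Igtp -1.004 and -0.50. Igtp overlaps Irgm2 on the same strand and shares 11.8% of its 50-base words with it.

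The effector Iigp1 (chromosome 18, 60376027 to 60392634, plus strand), also called Irga6, had 6.48, 6.81, 5.51 and 5.73 FPKM in PATKO 53, 57, 70 and 71, against 36.3, 4.86, 9.63 and 17.5 FPKM in WT 55, 62, 64 and 65. This was the widest WT range of the 10 genes, with the highest value 7.46 times the lowest, while the PATKO range spanned 1.24-fold. Its PATKO mean of 6.13 ± 0.613 FPKM was 35.9% of the WT mean of 17.1 ± 13.8 FPKM (SD, n = 4 each), and the log2 difference was -1.06 with all libraries and -0.59 without WT 55.

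**Figure D3:**
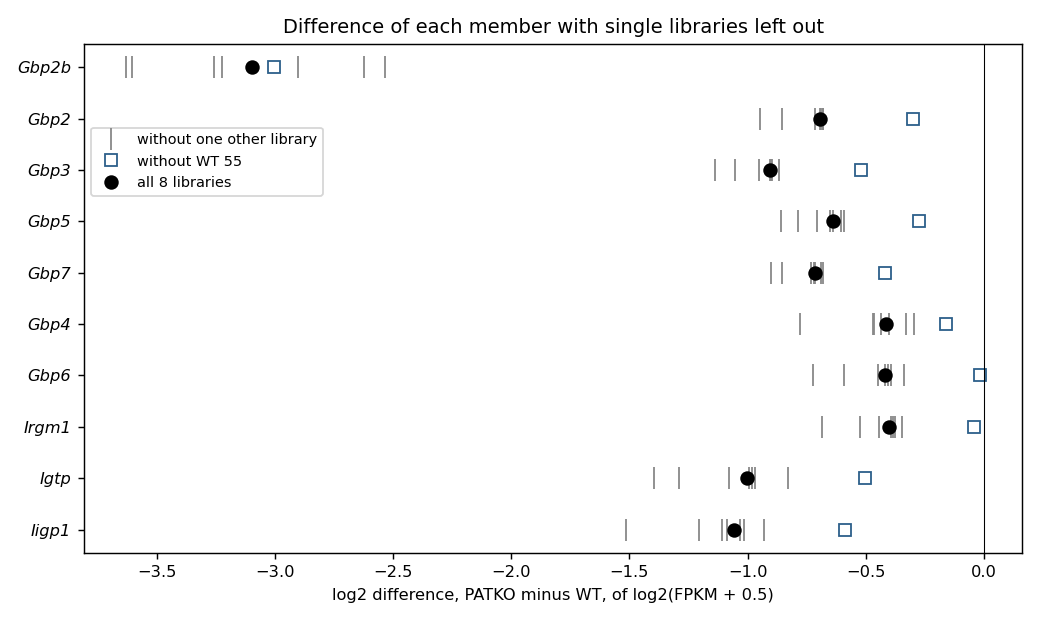
Log2 difference, PATKO minus WT, of log2(FPKM + 0.5) for each GTPase gene, with all 8 libraries (filled circle), without WT 55 (open square) and without each of the other libraries (ticks). The open square lies nearer to 0 than the circle for the 9 genes other than Gbp2b, from -0.59 for Iigp1 to -0.02 for Gbp6, while for Gbp2b the values are -3.01 without WT 55 and -3.10 with all libraries.

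All 10 genes had a lower mean log2 level in PATKO, with a median difference of -0.70 as deposited and -0.89 after median-of-ratios scaling, beside 0.17 and -0.00 over all tested genes. Without WT 55 the median over the 10 genes was -0.36. PATKO lay below WT without overlap for 3 of the 10 genes, Gbp2b, Gbp3 and Gbp7, and for 0.597% of all tested genes; PATKO lay above WT without overlap for 0 of the 10 and for 24% of all tested genes. The test across all genes, limma on log2(FPKM + 0.5) with Benjamini-Hochberg adjustment, called 1 of the 10 lower, Gbp2b, and 0 higher, where it called 13.5% of all genes, 13.2% higher and 0.27% lower. It called 0 of the 10 after median-of-ratios scaling, where it called 0.123% of all genes, 0.0817% higher and 0.0409% lower. Since these differences chose the genes, nothing is read from those counts. The authors' deposited table gives adjusted p-values from a test not named there, which were 0.456 for Gbp2b, 0.0387 for Gbp5, 0.0465 for Gbp7 and 0.056 to 0.335 for the other 7 genes.

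The 10 genes also differed in how much they varied between libraries of a group, which is given as a description. Setting Gbp2b aside, the SD of log2 values within WT was 0.65 to 1.24 for the 9 other genes, against a median of 0.15 over all tested genes, and between 97.7% and 99.7% of tested genes had a smaller one. Within PATKO it was 0.04 to 0.24, against a median of 0.14, and 3.63% to 81.1% of tested genes had a smaller one. Gbp2b had an SD of 1.80 in PATKO and 0.51 in WT, and after rounding 100% and 96% of tested genes had a smaller one. WT 55 was the highest of the 8 libraries for all 9 genes other than Gbp2b, which was highest in WT 65, whereas WT 55 was the highest for 6.92% of tested genes. WT 62 lay below every PATKO library for 5 of the 9 genes and WT 64 for 2, while WT 55 and WT 65 were above every PATKO library for all 9.

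Across the 8 libraries, the 9 genes other than Gbp2b followed each other with Pearson correlations of 0.67 to 0.99 over 36 pairs of log2 values. The lower ones involved Gbp4 (0.67 to 0.87), and without it the lowest was 0.90. Gbp2b correlated with the others at 0.28 to 0.65. All genes were read from the same 8 libraries, so their depth and tissue sampling are shared, and the correlations are descriptions.

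**Figure D4:**
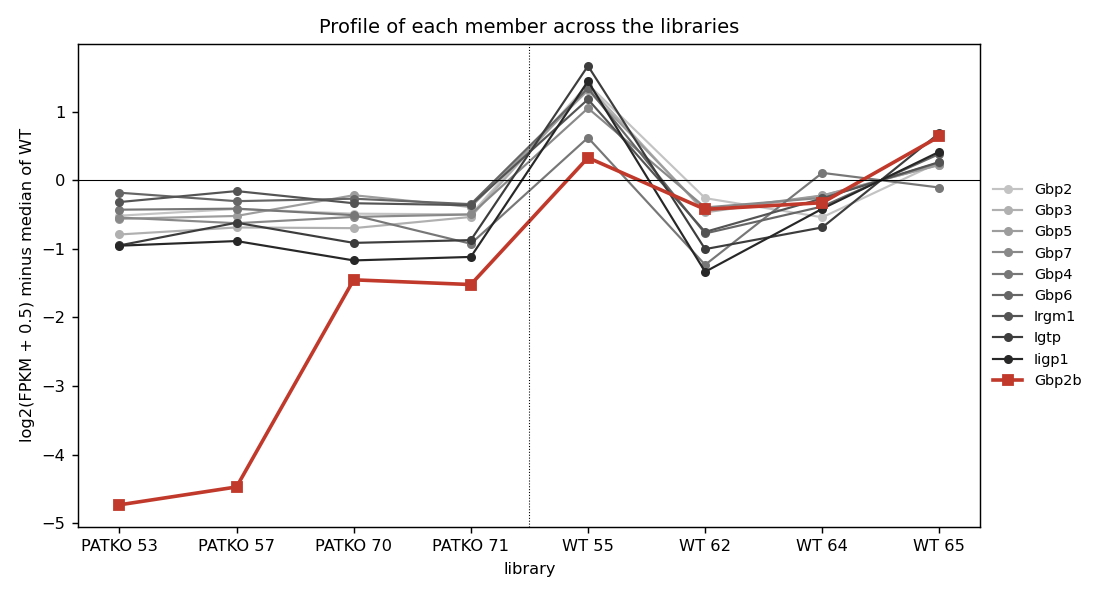
Level of each GTPase gene in the 8 libraries, as log2(FPKM + 0.5) minus the gene's median in WT, with Gbp2b in red and the 9 others in grey; lines only join the points of a gene. The grey profiles peak together in WT 55 and are nearly flat across PATKO, least so for Gbp4. Gbp2b drops to the lowest points in PATKO 53 and PATKO 57.

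Among 11083 genes averaging 1 FPKM or more, those most like the mean log2 level of the 9 genes, apart from members, included Gm12250 (r = 0.988), Zbp1 (0.985), Rtp4 (0.976) and Psmb8 (0.973), over 8 libraries. Gm12250, listed in RefSeq as Irgb10 and a further immunity-related GTPase, had 0.286, 0.336, 0.379 and 0.245 FPKM in PATKO 53, 57, 70 and 71, against 5.72, 0.343, 0.657 and 2.25 FPKM in WT 55, 62, 64 and 65. The nucleic acid sensor Zbp1 was at 0.634 to 0.908 FPKM in PATKO and 0.682 to 7.89 FPKM in WT. Both were picked for likeness to the 9 genes, so their order of libraries follows from that choice.

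The genes most like Gbp2b were others: Hk2 (r = 0.967), Upp1 (0.934), Recql (0.868), Incenp (0.867) and Ube2v1 (0.854), over the same 8 libraries. Hk2, a hexokinase of glucose uptake, had 26.9, 28.6, 30.99 and 32.2 FPKM in PATKO 53, 57, 70 and 71, against 36.3, 34.6, 34.8 and 34.8 FPKM in WT 55, 62, 64 and 65. Upp1, a uridine phosphorylase, had 0.620, 0.560, 1.13 and 1.12 FPKM in PATKO, against 1.47, 1.17, 1.37 and 1.14 FPKM in WT. Both were picked for likeness to Gbp2b, and the spread of Hk2 was far narrower.

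Genes beside the GTPase clusters give values for the same stretches of chromosome. Of 10 direct protein-coding neighbours, 9 were in the table and 5 were tested. Limma called 1 of these, Trim7 beside Irgm1, where it called 13.5% of all tested genes. Trim7 was at 1.18 ± 0.461 FPKM in PATKO and 0.519 ± 0.0897 FPKM in WT (SD, n = 4 each). Its limma adjusted p was 0.0417, and 0.188 after median-of-ratios scaling. Beside the chromosome 3 cluster, Pdlim5 had 8.89 ± 0.532 FPKM in PATKO and 7.55 ± 0.402 FPKM in WT (limma adjusted p = 0.0683). Kyat3, on the other side, had 19.0 ± 1.11 FPKM in PATKO and 20.2 ± 1.95 FPKM in WT (limma adjusted p = 0.483). PATKO 53 and PATKO 57 were the lowest of the PATKO libraries for Pdlim5, at 8.24 and 8.68 FPKM beside 9.24 and 9.40 FPKM in PATKO 70 and PATKO 71, and this order was absent from Kyat3, at 18.3, 18.6, 20.7 and 18.6 FPKM. The cluster lies 101 Mb from Pgrmc2 on the same chromosome.

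The surrounding pathway was read from 6 lists of 100 genes, of which 81 were tested. With FPKM as deposited, limma called 4 higher and 3 lower in PATKO at an adjusted p under 0.05, which is 4.94% and 3.7% of the 81, beside 13.2% and 0.27% of all tested genes. After median-of-ratios scaling it called 0 of the 81, beside 0.123% of all tested genes in either direction; at an unadjusted p under 0.05, 2 of the 81 were higher and 19 lower, where 9.11% of all tested genes were higher and 8.25% lower. At that unadjusted p with FPKM as deposited, 34.6% of all tested genes were higher and 1.39% lower. Each of the 7 calls ended when PATKO 53, PATKO 70, WT 62 or WT 64 was left out, with limma adjusted p between 0.0545 and 0.111. Calls also ended for Cxcl9 without any single other library, for Ubd without PATKO 57, PATKO 71 or WT 65, for Cd274 and Gabarap without PATKO 71, and for Cd274, Ifnar1 and Atg7 without WT 65.

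Of 17 other interferon-induced GTPases, 10 were tested and none was called (0 higher and 0 lower unadjusted in limma, 0 and 3 after median-of-ratios scaling), with a median log2 difference of -0.46 beside 0.17 for all tested genes. WT 55 was the highest library for 9 of these 10. Ifi47, an immunity-related GTPase, had 1.47, 1.74, 1.89 and 1.998 FPKM in PATKO 53, 57, 70 and 71, against 6.04, 1.65, 1.78 and 3.44 FPKM in WT 55, 62, 64 and 65 (limma adjusted p = 0.213). Mx2, an antiviral dynamin-like GTPase, had 0.553 ± 0.0904 FPKM in PATKO and 1.078 ± 0.738 FPKM in WT (SD, n = 4 each; limma adjusted p = 0.207). Irgq, a divergent family member, had 4.61 ± 0.221 FPKM in PATKO and 3.89 ± 0.564 FPKM in WT (limma adjusted p = 0.149).

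Among ligands and receptors, Ifng, the ligand of the pathway, was listed at 0.058 FPKM in PATKO 53 and at 0 in the other 3 PATKO libraries, against 0.152, 0.055, 0.113 and 0.391 FPKM in WT 55, 62, 64 and 65, below the filter for the test. Ifngr2, a subunit of its receptor, was 9.97 ± 0.703 FPKM in PATKO and 7.39 ± 0.909 FPKM in WT (SD, n = 4 each) and rose by 0.41 on the log2 scale (limma adjusted p = 0.0306). It was the only gene called of 11 tested in interferon gamma signalling, whose median log2 difference was -0.03. Of all tested genes, 13.2% were called higher. Ifnar1, a subunit of the type I interferon receptor, was 10.3 ± 1.31 FPKM in PATKO and 7.71 ± 0.237 FPKM in WT and rose by 0.38 (limma adjusted p = 0.0323), the only call among 10 tested genes of type I signalling, whose median was -0.01. The medians of both lists, -0.03 and -0.01, stand beside 0.17 for all tested genes. WT 55 was the highest library for 5 of the 11 tested genes of interferon gamma signalling and 6 of the 10 of type I signalling. It was the highest for 6.92% of all tested genes. After median-of-ratios scaling the list medians were -0.16 and -0.20, beside -0.00 for all tested genes. The log2 differences were then 0.23 for Ifngr2 and 0.20 for Ifnar1 (limma adjusted p = 0.235 and 0.195). Over the 14 settings tried, adjusted p went from 0.0217 to 0.235 for Ifngr2 and from 0.0234 to 0.195 for Ifnar1.

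Of 30 tested interferon-stimulated genes outside the GTPase families, 3 fell, 0 rose and 27 did not pass. Over all tested genes, 0.27% were called lower and 13.2% higher. The median log2 difference of the 30 was -0.24, and WT 55 was the highest library for 27 of them. Ubd, a ubiquitin-like modifier, had 0.602, 0.523, 0.891 and 0.568 FPKM in PATKO 53, 57, 70 and 71, against 1.57, 3.68, 1.10 and 2.31 FPKM in WT 55, 62, 64 and 65 (log2 change -1.13, limma adjusted p = 0.0328). Cd274, the immune checkpoint ligand PD-L1, had 17.2, 23.8, 17.1 and 20.5 FPKM in PATKO, against 36.7, 28.5, 25.1 and 28.0 FPKM in WT (log2 change -0.58, limma adjusted p = 0.0328). The chemokine gene Cxcl9 averaged 6.58 ± 0.470 FPKM in PATKO and 17.3 ± 9.77 FPKM in WT (SD, n = 4 each; log2 change -1.16, limma adjusted p = 0.0471). In all 3 PATKO lay below WT without overlap, but they were picked by the test as lower, so nothing is read from that. Cxcl10, which was not called (limma adjusted p = 0.0512), did not overlap either. It was at 0.641 to 1.089 FPKM in PATKO and 1.246 to 13.6 FPKM in WT. Over all tested genes, PATKO lay below WT without overlap for 0.597%. With median-of-ratios scaling the log2 differences were -1.27 for Ubd, -0.77 for Cd274 and -1.35 for Cxcl9. The adjusted p from limma was then 0.118 for Ubd, 0.0868 for Cd274 and 0.130 for Cxcl9, the highest value of each over the settings tried, the lowest being 0.0288, 0.0234 and 0.0349.

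A further list held genes that attach lipids to the GTPases or guide them to membranes through ATG8 proteins. Of 15 tested, 2 rose, 0 fell and 13 did not pass, where 13.2% of all tested genes were called higher and 0.27% lower. The median log2 difference of the list was 0.19, close to the 0.17 of all tested genes. Atg7, an enzyme of ATG8 conjugation, averaged 8.43 ± 0.630 FPKM in PATKO and 6.46 ± 0.403 FPKM in WT (SD, n = 4 each; limma adjusted p = 0.0294), and the ATG8 protein gene Gabarap 262.3 ± 5.03 FPKM in PATKO and 220.1 ± 10.7 FPKM in WT (limma adjusted p = 0.0316). After median-of-ratios scaling the log2 differences were 0.17 for Atg7 and 0.06 for Gabarap, beside 0.36 and 0.25 as deposited. The adjusted p from limma was then 0.344 for Atg7 and 0.719 for Gabarap, the highest over the settings, and the lowest were 0.0214 and 0.0238. Of 10 inflammasome and pyroptosis genes, 5 were tested and none was called (1 higher and 0 lower unadjusted in limma, 0 and 1 after median-of-ratios scaling). Casp4, the caspase that senses bacterial lipopolysaccharide, was 1.43 ± 0.519 FPKM in PATKO and 2.10 ± 0.523 FPKM in WT (limma adjusted p = 0.169). Ninj1, which ruptures the membrane of dying cells, was 53.5 ± 5.97 FPKM in PATKO and 40.9 ± 10.1 FPKM in WT (limma adjusted p = 0.0936). Il18, a cytokine that inflammasomes activate, was 1.28 ± 0.206 FPKM in PATKO and 1.15 ± 0.298 FPKM in WT (limma adjusted p = 0.580).

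Markers of T and NK cells, which release interferon gamma, had like the 9 genes their highest sum in WT 55 and the next in WT 65. The 17 markers summed to 6.93, 9.86, 10.5 and 6.46 FPKM in PATKO 53, 57, 70 and 71, against 40.2, 10.7, 8.75 and 33.2 FPKM in WT 55, 62, 64 and 65. WT 55 was the highest library for 14 of the 17 and WT 65 for the other 3, and Cd3e was listed at 0 in WT 64. Ccl5 alone gave 12.3 FPKM of the sum in WT 55 and 15.5 FPKM of that in WT 65. The 9 GTPase genes summed to 54.2, 58.4, 54.5 and 53.8 FPKM in PATKO, against 226.1, 52.3, 65.4 and 109.8 FPKM in WT, with the libraries listed in the same order. Among the remaining libraries the sums were ranked differently, and WT 64 was below WT 62 for the markers but above it for the 9 genes. In bulk tissue, fewer cells of a type and less RNA per cell cannot be told apart, and the part of T and NK cells in the GTPase levels was not tested. None of the 9 tested markers of these cells was called (0 higher and 3 lower unadjusted in limma, 0 and 6 after median-of-ratios scaling).

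Sums of other cell markers were ordered differently from one list to the next. The 12 macrophage markers summed to 128.1 to 256.2 FPKM in PATKO and 122.5 to 237.8 FPKM in WT, with PATKO 70 highest and 0 of 12 called (2 higher and 0 lower unadjusted in limma, 0 and 0 after median-of-ratios scaling). The 8 endothelial markers summed to 163.5 to 192.9 FPKM in PATKO and 140.0 to 201.6 FPKM in WT, with WT 55 highest and WT 65 lowest, and 1 of 8 was called higher, Emcn. The 4 B cell markers summed to 0.930 to 1.82 FPKM in PATKO and 1.599 to 2.06 FPKM in WT, with Ms4a1 listed at 0 in PATKO 57. The 12 brown adipocyte markers summed to 13404 to 15159 FPKM in PATKO and 12885 to 14636 FPKM in WT, and 1 was called higher, Kcnk3. Abundant genes weigh most in such sums, and Fabp4 alone was at 8777 to 9627 FPKM in PATKO and 8204 to 9915 FPKM in WT. Of all tested genes, 13.2% were called higher as deposited. The 10 skeletal muscle markers, genes of a tissue that lies against brown fat, summed to 1738, 1140, 1724 and 4431 FPKM in PATKO 53, 57, 70 and 71, against 528.7, 401.4, 430.6 and 980.4 FPKM in WT 55, 62, 64 and 65. PATKO 71 was the highest library for muscle, and within WT the highest were WT 65 and WT 55. All 10 muscle markers were called higher as deposited, with a median log2 difference of 1.88, and 0 after median-of-ratios scaling, with a median of 1.69 and 10 higher at an unadjusted p under 0.05 in limma. The endothelial and brown adipocyte markers also had 0 calls after that scaling, with 0 higher in both lists and 0 and 2 lower at an unadjusted p under 0.05 in limma. Whether macrophage, endothelial, muscle or B cell content contributes to the GTPase levels was not tested.

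**Figure D5:**
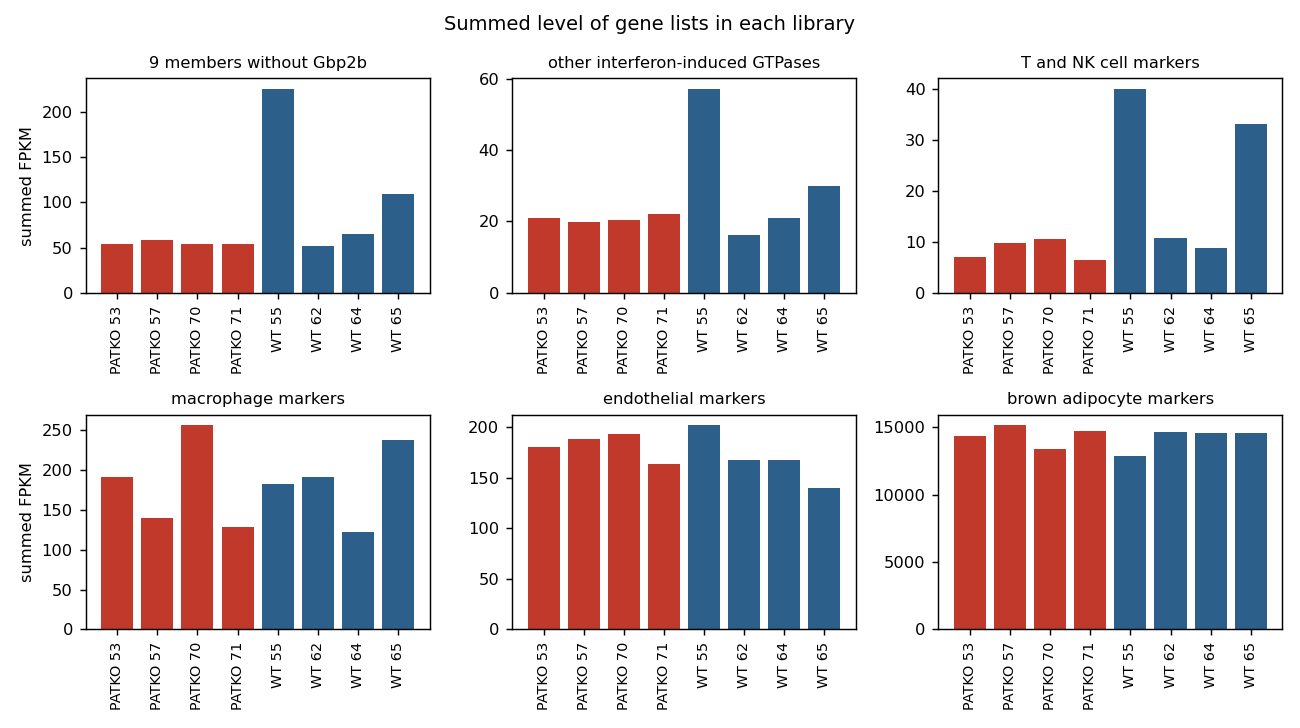
Summed FPKM of the 9 GTPase genes other than Gbp2b and of 5 gene lists in each PATKO (red) and WT (blue) library, each panel with its own scale from 0. The 9 genes, the other GTPases and the T and NK cell markers are highest in WT 55 and next in WT 65, an order not seen in the macrophage, endothelial and brown adipocyte sums. Abundant genes weigh most in each sum.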

How the data were processed

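The authors deposited 1 table of FPKM values per gene symbol and library, with a mean FPKM per group and an adjusted p-value, per the file headers. The adjusted p-values of that deposited table come from a test not named there. Not given in the sources used here: aligner, counter, strand setting and annotation. The genome build was mm10, per the submitters' processing notes. Libraries were made from 0.5 µg of RNA with a stranded kit, per the labels' protocols.

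FPKM values are not counts, so the test was that of limma 3.58.1, under R 4.3.3, with a two-sided p and a prior variance that follows the mean. It used log2(FPKM + 0.5) of the 12235 genes that averaged 0.5 FPKM or more. P-values were adjusted by Benjamini-Hochberg, with a threshold of 0.05; this scale understates changes of low genes. The fit was first tested on simulated data with known changes. These had no shift common to the genes of a group, so they do not bear on the upward shift in PATKO. Absolute depth is unknown, so no counting intervals are given. Whole reads were not recovered, since lengths are not given.

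The members and lists were chosen with earlier results of these data known. The text names all members, Pgrmc2, of each pathway list the called genes or else up to 3 with the smallest p, the 5 genes most like Gbp2b and the 5 most like the mean of the other 9 members, and direct neighbours. Of these, 1 gene is not reported here. Gm12250 was found by likeness and is in no list. Cxcl10 is named for its lack of overlap. Marker sums use every listed marker. Positions and transcript words came from GENCODE M21 on GRCm38, and promoters from RefSeq. Python 3.11.15, pandas 2.3.3 and matplotlib 3.10.9 were used. Alternatives were median-of-ratios scaling, a common total, pseudocounts of 1 and 0.1, no filter, a minimum mean of 5 FPKM, and leaving out each library.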

Additional observations from a re-analysis of the deposited data

How the results depend on the processing

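The count of genes called over the whole table depended on the scaling. Limma called 1646 genes as deposited, 15 after median-of-ratios scaling, 28 with libraries at a common total and 713 with no filter. Of the pathway genes it called 7, 0 (unadjusted in limma, 2 higher and 19 lower), 0 (unadjusted, 6 higher and 8 lower) and 4 in the same settings. Its calls as deposited were 1613 higher and 33 lower, and after median-of-ratios scaling 10 higher and 5 lower. When 1 library was dropped, so that fewer remained, the calls over all genes ranged from 24 (without PATKO 53 or WT 64) to 1468 (without WT 55), and were 1022 without PATKO 57, 739 without PATKO 71, 628 without WT 65, 145 without WT 62 and 125 without PATKO 70. The pathway calls ranged from 0 (without PATKO 53, PATKO 70, WT 62 or WT 64) to 9 (without WT 55), with 2 without WT 65, 3 without PATKO 71 and 6 without PATKO 57. All 120 values of single members under the 12 settings that apply to them stayed below 0. The members were chosen with their FPKM in these libraries known, so this sign is a description only. The 120 values also moved by less than 1 SD of the libraries, but leaving out 1 of 4 libraries cannot move the mean of its group further. Without WT 55, Gbp6 went from -0.42 to -0.02 and Irgm1 from -0.40 to -0.04. The median over the 10 members went from -0.90 (without WT 64) to -0.36 (without WT 55). No paired analysis was possible because the groups share no replicate number in the labels. Precision is limited by 4 libraries a group and by unknown depth, so values of low genes, such as Gbp2b in PATKO 53 and PATKO 57, carry no counting interval.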
